A study of Mus musculus with 18 samples.

Results

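The miRNAs described here are the mature products of 2 hairpins transcribed in blood and myeloid cells: mmu-miR-142a-3p and mmu-miR-142a-5p from Mir142, and mmu-miR-223-3p from Mir223. They were chosen by name among the mature miRNA rows of the count table, so that they are 3 of 1978 mature miRNAs and 3 of 203513 features in all. Small RNA was sequenced from brain cells of WT mice and of mice homozygous for Atxn2-CAG100-KIN (KIN), in which an expanded CAG repeat is knocked into Atxn2 as a model of spinocerebellar ataxia type 2. All mice were 10 months old, on a C57BL/6 background per the study's methods, and received no treatment. Magnetic beads took microglia by CD11b and astrocytes by ACSA-2 from the dissociated brain, and the fraction labelled neurons was what flowed through after the remaining non-neuronal and CD31+ cells had been bound. The 18 libraries formed 6 groups of 3 by fraction and genotype. Equal RNA amounts entered each library, so every level is a relative amount.

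A miRNA hairpin is cut by Drosha and Dicer to a duplex of 2 arms, 5p and 3p, and usually 1 arm is retained in an Argonaute protein, where its seed (bases 2 to 8) pairs with target mRNAs. miR-142 is made throughout the blood lineages, lymphocytes included, and is often used to mark or silence expression in blood-derived cells. miR-223 is best known from neutrophils and monocytes, where it limits granulocyte maturation and inflammatory signalling, and its gene lies on the X chromosome. Microglia are the myeloid cells of the brain, whereas astrocytes and neurons are not of blood origin.

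The mature sequences follow, with the seed in capitals, because the seeds show that the 3 miRNAs address separate target sites and because miR-142b, printed for comparison, limits what can be read from miR-142a-3p. All sequences are from RefSeq and were placed on GRCm39, the build that mm39 also names.
mmu-miR-142a-3p: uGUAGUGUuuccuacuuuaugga
mmu-miR-142a-5p: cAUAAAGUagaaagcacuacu
mmu-miR-223-3p: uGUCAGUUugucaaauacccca
mmu-miR-142b: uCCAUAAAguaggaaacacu
mmu-miR-223-5p: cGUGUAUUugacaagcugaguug

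No seed was shared among them, and no other mature miRNA of the table carried the seed of any of the 3. miR-142a-3p, 23 bases long, lies at chr11:87647729-87647751 on the plus strand, and miR-142a-5p, 21 bases long, at chr11:87647693-87647713 on the same strand. miR-142b is read from the minus strand at chr11:87647732-87647751 and is the exact reverse complement of bases 4 to 23 of miR-142a-3p. The authors counted reads without using strand, so reads of miR-142a-3p and miR-142b cannot be told apart by the table alone. miR-223-3p, 22 bases long, lies at chrX:95286490-95286511 on the plus strand. The hairpins follow with both mature arms in capitals, to show where the remaining reads of each locus can fall.
Mir142: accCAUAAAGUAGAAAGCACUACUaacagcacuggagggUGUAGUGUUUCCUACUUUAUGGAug
Mir223: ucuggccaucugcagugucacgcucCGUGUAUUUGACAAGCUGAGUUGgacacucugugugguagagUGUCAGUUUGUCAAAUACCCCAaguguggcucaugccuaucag

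Mir142 (ENSMUSG00000105196) spans chr11:87647690-87647753 and lies in an exon of 2 and an intron of 2 of the 4 annotated transcripts of its host gene Mir142hg. Mir142b (ENSMUSG00000065420) overlaps it on the opposite strand, at chr11:87647667-87647781. Mir223 (ENSMUSG00000076066) spans chrX:95286423-95286532 and lies within an exon of 14 of the 17 annotated transcripts of Mir223hg.

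Libraries held 1211118 to 4316748 counts, and mature miRNAs took 5.05 to 10.3% of them in the glial fractions but only 0.964 to 2.13% in the fraction labelled neurons. In CPM (counts per 1000000 counts of the library), 6 neuronal miRNAs (miR-124-3p, miR-9-5p and others) were lower in that fraction than in astrocytes. They summed to 1185 ± 659 CPM in WT neurons and 8350 ± 2507 CPM in WT astrocytes (mean ± SD, n = 3). In KIN the sums were 2496 ± 745 and 7965 ± 647 CPM. CPM are taken over all features, so the lower share of mature miRNAs in neurons lowers every miRNA there. As a part of mature miRNA counts, the 6 were lower in WT neurons than in WT astrocytes but higher in KIN neurons than in KIN astrocytes. WT neurons had 698, 3689 and 1669 of 11675, 37782 and 16529, and WT astrocytes 20225, 44530 and 24481 of 158787, 330580 and 200530. KIN neurons had 7610, 4266 and 6020 of 49887, 32256 and 38911, and KIN astrocytes 29013, 29529 and 26897 of 355832, 327593 and 313674. Fragments of 6 neuronal transcripts had a higher mean in WT neurons than in WT astrocytes (28.8 ± 6.7 against 16.7 ± 8.9 CPM). The libraries overlapped, at 21.5 to 34.7 and 6.78 to 23.9 CPM. In KIN the values were 14.9 ± 2.7 and 6.22 ± 0.98 CPM. Fragments of 5 red cell transcripts reached 48.0 to 140 CPM in WT and 19.0 to 47.8 CPM in KIN neurons and at most 1.64 CPM elsewhere, although red cells were lysed during isolation. In KIN replicate 1 of every fraction Xist had 4 or 5 counts, against 12 to 102 in the other 15 libraries, and sex was not a term of any fit. The study's methods describe same-sex pairs of WT and KIN littermates, both sexes being used, but no WT library had Xist as low as KIN replicate 1. Of the Y transcripts, Ddx3y had 0 counts in WT replicate 2 of every fraction and 1 to 4 in WT replicates 1 and 3. It had 1 to 7 counts in KIN replicate 1 and 0 or 1 in KIN replicates 2 and 3. Uty, Kdm5d and Eif2s3y were also sparse and had some counts in WT replicate 2. The sex of each library is therefore not settled by these counts.

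miR-142a-3p was a leading miRNA of microglia. It had 8694, 7957 and 9752 counts in the WT microglial libraries and 8238, 21951 and 19194 in the KIN ones, and ranked the third most counted mature miRNA in each of these 6 libraries. Its level was 2504, 2291 and 2659 CPM in WT and 2617, 5085 and 4468 CPM in KIN microglia. Of the KIN libraries, 2 thus stood well above the WT range and KIN replicate 1 stood within it.

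In the other fractions miR-142a-3p was far lower. Astrocytes had 22, 36 and 25 counts in WT (7.00, 9.04 and 7.59 CPM) and 85, 142 and 76 in KIN (24.7, 39.6 and 20.4 CPM), so that every KIN library exceeded every WT library. Neurons had 36, 318 and 148 counts in WT (29.7, 163 and 96.9 CPM) and 694, 614 and 347 in KIN (296, 253 and 143 CPM). The lowest KIN neuronal library lay below the highest WT one, and the WT libraries of this fraction were widely spread.

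miR-142a-5p, the other arm of the same hairpin, had 549, 670 and 839 counts in WT microglia (158, 193 and 229 CPM) and 629, 929 and 895 in KIN microglia (199.8, 215 and 208 CPM). The KIN libraries lay inside the WT range. Astrocytes held 2, 3 and 4 counts in WT and 5, 16 and 4 in KIN. Neurons held 15, 110 and 68 counts in WT (12.4, 56.2 and 44.5 CPM) and 186, 137 and 67 in KIN (79.4, 56.4 and 27.6 CPM), again with overlap. The astrocyte counts are so few that 1 library, KIN replicate 2, held most of the KIN reads.

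miR-223-3p had 1334, 1221 and 1837 counts in WT microglia (384, 352 and 501 CPM) and 883, 2651 and 1729 in KIN microglia (280, 614 and 402 CPM). The KIN values spanned the whole WT range. In astrocytes it had 8, 11 and 11 counts in WT and 17, 16 and 13 in KIN (2.54 to 3.34 against 3.49 to 4.94 CPM), low but without overlap, as for 34.7% of mature miRNAs. In neurons it had 1, 13 and 3 counts in WT and 4, 9 and 5 in KIN, so that in both genotypes it was close to the limit of detection there. Its passenger arm mmu-miR-223-5p was counted in microglia alone, with 5, 7 and 7 counts in WT and 3, 20 and 10 in KIN, and a count of 0 in the other 12 libraries allows up to 3 reads in each.

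**Figure D1:**
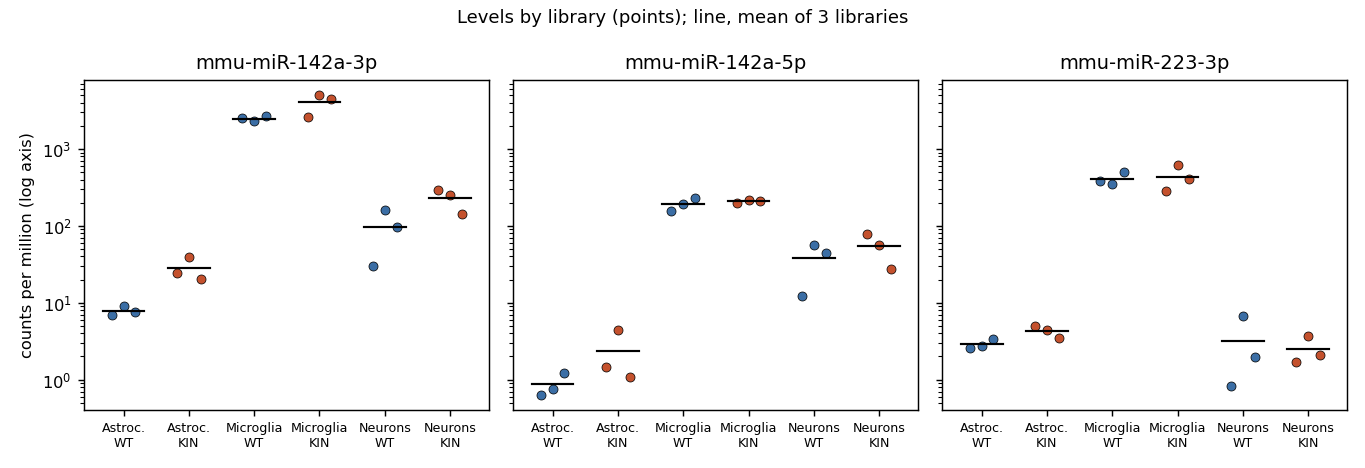
Level of each miRNA in CPM (log axis) in the 18 libraries, with points for libraries (blue WT, red KIN) and a line for the mean of 3. All 3 miRNAs were highest in microglia, miR-142a-3p was intermediate in neurons, and miR-223-3p lay between 0.826 and 6.64 CPM in neurons.

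By group mean, the order of levels was the same in both genotypes for miR-142a-3p (microglia, neurons, astrocytes) and for miR-142a-5p. The fractions of 1 genotype did not overlap for either arm. Of the mature miRNAs tested, 65% in WT and 70.6% in KIN were likewise higher in every microglial than in every neuronal library, but only 3.04% and 4.28% were higher in every neuronal than in every astrocyte library. For miR-223-3p microglia came first, and astrocytes (2.88 ± 0.41 CPM in WT, 4.30 ± 0.74 in KIN) and neurons (3.14 ± 3.08 and 2.49 ± 1.07 CPM) were neighbours that differed by less than their spread in WT. In the fraction labelled microglia, taken by a myeloid surface protein, the 3 miRNAs together made up 3090 ± 279 CPM in WT and 4697 ± 1447 CPM in KIN.

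The fractions were compared within each genotype by edgeR's quasi-likelihood test, with Benjamini-Hochberg adjustment over all features. A call needed an adjusted p not above 0.05 with a log2 change of 1 or more either way. In WT, all 3 miRNAs were called higher in microglia than in astrocytes, where 31.5% of all features tested were called and 22.5% of mature miRNAs were called higher. The log2 fold changes were 8.39 ± 0.27 (SE) for miR-142a-3p, 7.86 ± 0.40 for miR-142a-5p and 7.24 ± 0.30 for miR-223-3p, with edgeR adjusted p of 1.61e-08, 2.32e-07 and 4.47e-08. Of the 418 mature miRNAs tested, 2 had a fold change at least as large as that of miR-142a-3p, itself included. In bulk fractions, fewer cells of a type and less RNA per cell cannot be told apart.

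Against neurons the arms of miR-142a parted. In WT, microglia exceeded neurons by 4.88 ± 0.56 on the log2 scale for miR-142a-3p, by 2.55 ± 0.53 for miR-142a-5p and by 7.10 ± 0.63 for miR-223-3p (edgeR adjusted p 0.000464, 0.00619 and 0.000169). All 3 were called, beside 28% of all features and 57.7% of mature miRNAs called higher, and the median log2 fold change of the 343 mature miRNAs tested was 2.56. miR-142a-5p thus lay at that median and the others above it. With scaling from mature miRNAs, the microglial excess of miR-142a-5p was 0.57 and no longer called.

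Neurons exceeded astrocytes in WT by 3.41 ± 0.63 for miR-142a-3p and by 5.18 ± 0.71 for miR-142a-5p (edgeR adjusted p 0.00624 and 0.00228). Here 28.7% of features were called, but only 1.93% of mature miRNAs (7 of 362) were called higher in neurons, and the median miRNA was lower there by 2.66. The miR-142a arms were 2 of these 7. miR-223-3p did not differ detectably, at 0.04 ± 0.65 (edgeR adjusted p 0.965), a value that rests on 17 reads in all WT neuronal libraries.

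The KIN fractions gave the same calls for the 3 miRNAs. Microglia exceeded astrocytes by 7.27 ± 0.35, 6.59 ± 0.40 and 6.76 ± 0.32 for miR-142a-3p, miR-142a-5p and miR-223-3p (35.3% of features called, 22.1% of mature miRNAs higher), and exceeded neurons by 4.58 ± 0.30, 2.39 ± 0.34 and 7.86 ± 0.42 (53% called, 76.1% of mature miRNAs higher). The edgeR adjusted p ranged from 8.62e-13 to 2.19e-06 over these 6 values. Neurons exceeded astrocytes by 2.78 ± 0.28 and 4.27 ± 0.43 for the miR-142a arms (edgeR adjusted p 2.55e-11 and 3.39e-11, with 46.3% of features called and 3.78% of mature miRNAs higher). For miR-223-3p the KIN neurons lay lower than KIN astrocytes at −1.002 ± 0.490 on the log2 scale (edgeR adjusted p 0.0812), which missed the threshold. With scaling from mature miRNAs, the KIN value of miR-142a-5p for microglia over neurons turned to −0.033, not called, and that of miR-223-3p for neurons over astrocytes to 2.13, called.

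Fragments of 15 microglial transcripts (Cx3cr1, P2ry12, Tmem119, Itgam and others) were summed to see how much microglial RNA the other fractions held. In WT they came to 177 CPM in microglia, 2.64 CPM in astrocytes and 6.58 CPM in neurons, so that astrocytes held 1.49% and neurons 3.71% of the microglial level. miR-142a-3p stood at 0.317% of its microglial level in WT astrocytes and at 3.88% in WT neurons. miR-142a-5p stood at 0.449% and 19.5%, and miR-223-3p at 0.699% and 0.763%. In CPM, miR-142a-3p in WT neurons was thus near the share of the microglial transcripts, miR-142a-5p well above it and miR-223-3p well below it. The transcript share rests on 6 to 14 counts per WT neuronal library. CPM lower every miRNA in neurons, where mature miRNAs took few counts, so the places of miR-142a-3p and miR-223-3p may depend on the scale. Of mature miRNA counts, miR-142a-3p took 4.44 to 4.84% in WT microglia and 0.308 to 0.895% in WT neurons. miR-223-3p took 0.691 to 0.836% and 0.00857 to 0.0344%.

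In KIN the microglial transcripts stood at 2.06% of their microglial level in astrocytes and at 3.83% in neurons. The corresponding shares were 0.696% and 5.69% for miR-142a-3p, 1.12% and 26.2% for miR-142a-5p, and 0.994% and 0.576% for miR-223-3p. Of the 15 microglial transcripts, 9 had counts in neurons of each genotype. Tmem119 and P2ry12, which define microglia, were among the 6 without counts there, and Tmem119 had none in astrocytes. None of 4 border macrophage transcripts had counts in neurons, while 4 of 6 lymphocyte transcripts did (Cd3g and Nkg7 in both genotypes), at 0.826 to 3.07 CPM in WT and 2.99 to 4.12 CPM in KIN against at most 0.636 CPM in the other fractions. The part of residual blood cells in the neuronal values was not tested.

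KIN over WT, the comparison the design was made for, gave 1 call among the 3 miRNAs, in astrocytes. miR-142a-3p rose there by 1.96 ± 0.33 on the log2 scale, from 7.88 ± 1.05 to 28.2 ± 10.0 CPM (n = 3 each, edgeR adjusted p 0.00975), beside 8.18% of all features called, 1.79% called higher and 11.2% of mature miRNAs called higher. It was higher in 3 of 3 KIN libraries than in any WT library, as were 34.7% of the mature miRNAs tested. The median mature miRNA was higher in KIN astrocytes by 0.58 and the median of all features was lower by 0.19, and 13 of 418 mature miRNAs, miR-142a-3p included, had a fold change of at least 1.96. The call was lost without WT replicate 1 (adjusted p 0.0508) or WT replicate 3 (adjusted p 0.0722), with values of 1.83 and 1.89. With scaling from mature miRNAs the value was 1.27 ± 0.38, still called (edgeR adjusted p 0.0292).

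The other 2 miRNAs of KIN astrocytes did not pass. The log2 fold change was 1.53 ± 0.68 for miR-142a-5p (edgeR adjusted p 0.144) and 0.70 ± 0.36 for miR-223-3p (edgeR adjusted p 0.201), the latter close to the median of mature miRNAs. Microglial transcripts summed to 0.754 to 4.13 CPM in WT and 2.23 to 2.42 CPM in KIN astrocytes, so the KIN values lay inside the WT range. Of the 15, 9 had counts in WT and 8 in KIN astrocytes. Monocyte and neutrophil transcripts summed to at most 5 counts in any astrocyte library, and 9 of the 12 listed had none in WT and 9 in KIN, with S100a8, S100a9 and Mpo at 0 in both.

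In microglia miR-142a-3p had a log2 fold change of 0.91 ± 0.22 in KIN (edgeR adjusted p 0.0473), below the fold size that the call required, beside 4.35% of all features called and 8.38% of mature miRNAs called higher. The median of the 382 mature miRNAs tested was 0.46, and 87 of them had a value at least as high as miR-142a-3p. It was above all WT libraries in 2 of 3 KIN libraries, and 21.7% of mature miRNAs were so in all 3. Without KIN replicate 1, the library with few Xist counts, it rose by 1.08 ± 0.17 and was called (edgeR adjusted p 0.0112).

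miR-142a-5p at 0.32 ± 0.22 and miR-223-3p at 0.27 ± 0.25 did not pass in microglia (edgeR adjusted p 0.414 and 0.575). With scaling from mature miRNAs both turned to slightly negative values, −0.058 and −0.15. Microglial transcript fragments were lower in KIN microglia, at 91.5 to 126 CPM against 143 to 198 CPM in WT without overlap (all features, 18.5% lower without overlap), while monocyte and neutrophil transcripts lay at 8.15 to 10.2 CPM against 6.05 to 10.9 CPM. Of 6 neuronal miRNAs tested in KIN microglia, 1 was called, beside 4.35% of all features. This was miR-124-3p, lower by 1.28 ± 0.31 on the log2 scale (edgeR adjusted p 0.0485). The median log2 fold change of the 6 was −0.95. The part of these shifts in the values of the 3 miRNAs was not tested.

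In neurons no feature of 4535 was called by edgeR (0%), with 197 at an unadjusted p under 0.05, and DESeq2 called 0 as well, with 124. miR-142a-3p had a log2 fold change of 1.28 ± 0.53 (edgeR unadjusted p 0.0357, adjusted p 0.917), and 7 of 217 mature miRNAs reached that value, itself included. miR-142a-5p had 0.54 ± 0.55 and miR-223-3p −0.42 ± 0.71 (edgeR adjusted p 0.917 and 0.943). Microglial transcripts summed to 4.95 to 9.16 CPM in WT and 3.30 to 5.12 CPM in KIN neurons. These ranges overlapped and rest on 6 to 14 and 8 to 12 counts per library. The part of microglial RNA in the neuronal miR-142a-3p values was not tested.

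**Figure D2:**
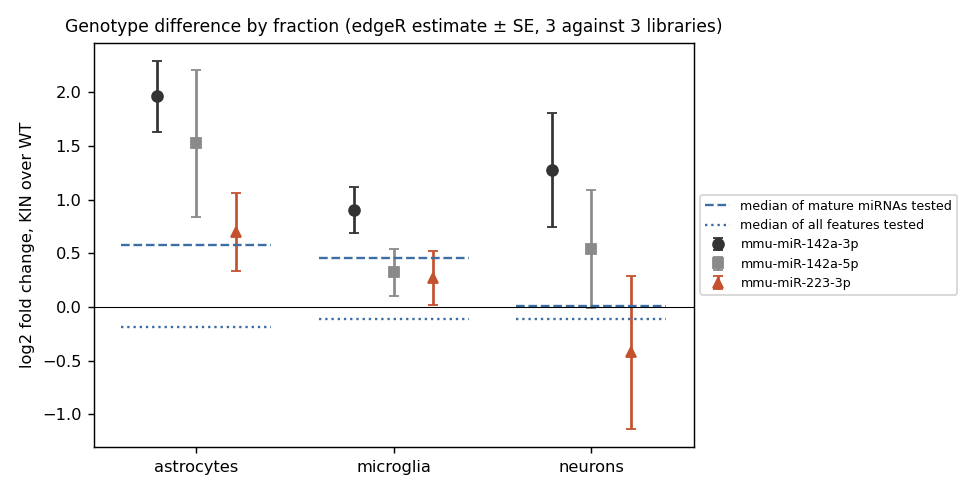
Log2 fold change of KIN over WT for the 3 miRNAs in each fraction (edgeR estimate ± SE, 3 against 3 libraries), with dashed lines at the median of mature miRNAs and dotted lines at the median of all features tested. miR-142a-3p lay above miR-142a-5p and miR-223-3p in every fraction, and only its astrocyte value, 1.96, was called.

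The genotype effect was compared between fractions by an interaction term in 1 edgeR fit of all 18 libraries. For miR-142a-3p it was lower in microglia than in astrocytes by a log2 difference of −1.06 ± 0.60 and lower in neurons than in astrocytes by −0.60 ± 0.61 (edgeR adjusted p 0.819 and 0.797). The 9 such values of the 3 miRNAs had edgeR adjusted p of 0.693 to 0.969, beside calls for 0.146% of features for microglia against astrocytes, 1.23% for microglia against neurons and 0% for neurons against astrocytes. The call in astrocytes alone is therefore not shown to be particular to astrocytes.

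The arms of miR-142a were compared as shares of the reads of both arms, a measure within a library that no scaling touches. The 5p share was 5.94, 7.77 and 7.92% in WT microglia, and its 95% Wilson interval in the first of these was 5.48 to 6.44%. It was 7.09, 4.06 and 4.46% in KIN microglia, lower in 2 libraries and within the WT range in KIN replicate 1. Astrocytes gave 8.33, 7.69 and 13.8% in WT and 5.56, 10.1 and 5.00% in KIN, but on so few reads that the interval of WT replicate 1 ran from 2.32 to 25.9%.

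Neurons differed from both. The 5p share was 29.4, 25.7 and 31.5% in WT neurons and 21.1, 18.2 and 16.2% in KIN neurons, so that every neuronal library lay above every glial one. WT neurons exceeded WT microglia by 21.7 percentage points in the mean (28.9 ± 2.9 against 7.21 ± 1.10%) and KIN neurons exceeded KIN microglia by 13.3. Within neurons the KIN mean, 18.5 ± 2.5%, was lower by 10.3 points than the WT mean, without overlap. The exact two-sided permutation test gave p = 0.1 for each of these 3 differences (adjusted p 0.138 over the 18 comparisons of ratios made), which is the smallest p that 3 against 3 libraries allow. WT and KIN overlapped in astrocytes (p = 0.3, exact permutation) and in microglia (p = 0.2).

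The ratio of miR-223-3p to miR-142a-3p was lower in KIN in every fraction. Per 100 reads of miR-142a-3p, WT microglia held 15.3, 15.3 and 18.8 reads of miR-223-3p and KIN microglia 10.7, 12.1 and 9.01. In astrocytes the ratio was 36.4, 30.6 and 44 in WT and 20, 11.3 and 17.1 in KIN. In neurons it was 2.78, 4.09 and 2.03 in WT and 0.576, 1.47 and 1.44 in KIN, on 1 to 13 reads of miR-223-3p. WT and KIN did not overlap in any of the 3 fractions.

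On the log2 scale the ratio fell by 0.64 in microglia, by 1.22 in astrocytes and by 1.41 in neurons, each with an exact permutation p of 0.1, the smallest possible, and an adjusted p of 0.138. The 3 fractions came in sequence from the same brains per the study's methods, so they are not independent repeats. Between fractions of WT, the ratio was 5.78-fold higher in microglia than in neurons and was 0.449 of that of astrocytes, both without overlap. In KIN microglia, miR-223-3p lay below the WT range in replicate 1 and above it in replicate 2, while miR-142a-3p lay above the WT range in replicates 2 and 3.

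**Figure D3:**
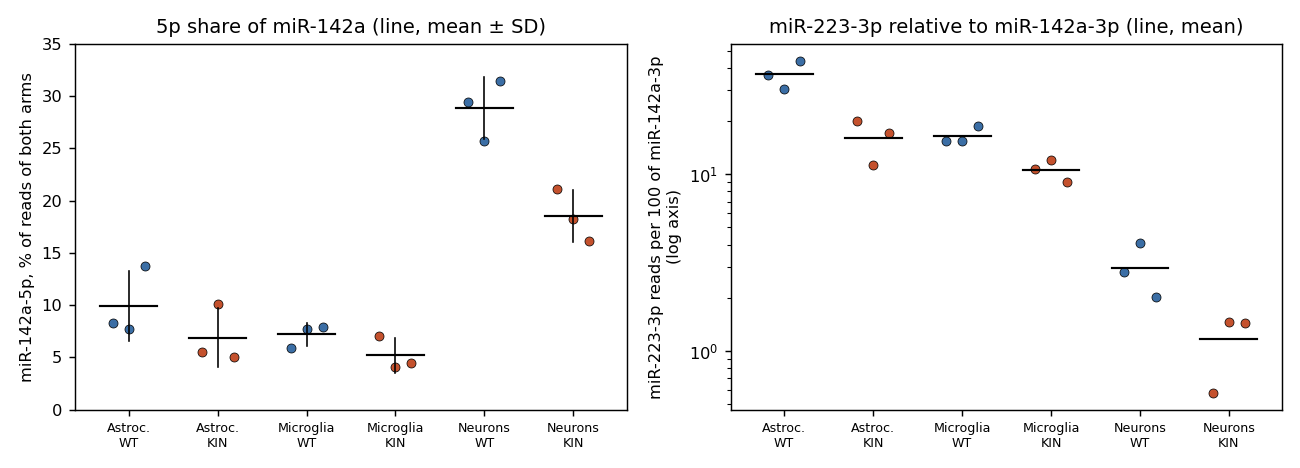
Left, miR-142a-5p as a percentage of the reads of both miR-142a arms, with the mean ± SD of 3 libraries; right, reads of miR-223-3p per 100 reads of miR-142a-3p (log axis), with the mean. Points are libraries (blue WT, red KIN); the 5p share was 16.2 to 31.5% in neurons and at most 13.8% elsewhere, and the ratio on the right was lower in KIN than in WT in each fraction.

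Reads that were not placed on mature rows could fall on the hairpin rows of the same locus. Mir142-201 held 1417, 1402 and 1696 counts in WT microglia and 1383, 3510 and 3140 in KIN microglia, and Mir142b-201 held 1511, 1382 and 1761 and 1456, 3660 and 3062. The rows were nearly equal, with 93.8 to 103 reads on Mir142 for each 100 on Mir142b, so they divide a shared pool and neither can be read as 1 strand. Together the hairpins took 23.3 to 24.4% of all reads of the locus in microglia, and 20 to 30.6% in the other fractions.

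The hairpin rows rose with miR-142a-3p in KIN astrocytes, by 1.98 ± 0.48 for Mir142-201 and by 1.57 ± 0.43 for Mir142b-201 (edgeR adjusted p 0.0335 and 0.044), on 3 to 8 counts in WT and 10 to 20 in KIN libraries. In KIN microglia they had 0.84 ± 0.22 and 0.83 ± 0.21 (edgeR adjusted p 0.0607 and 0.0559), not called. The row of mmu-miR-142b was called there, at 1.07 ± 0.25 (edgeR adjusted p 0.0464), on 103 to 136 counts in WT and 128 to 312 in KIN. It amounted to 1.17 to 1.53% of the miR-142a-3p and miR-142b reads in microglia. Adding it to miR-142a-3p left the value in KIN microglia at 0.91.

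Mir223-201 held 79, 94 and 131 counts in WT and 61, 196 and 114 in KIN microglia, and at most 2 counts in any other library. Its value in KIN microglia was 0.29 ± 0.32 (edgeR adjusted p 0.662), close to that of miR-223-3p. Mir142hg-201, the host transcript, had no counts in any library.

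**Figure D4:**
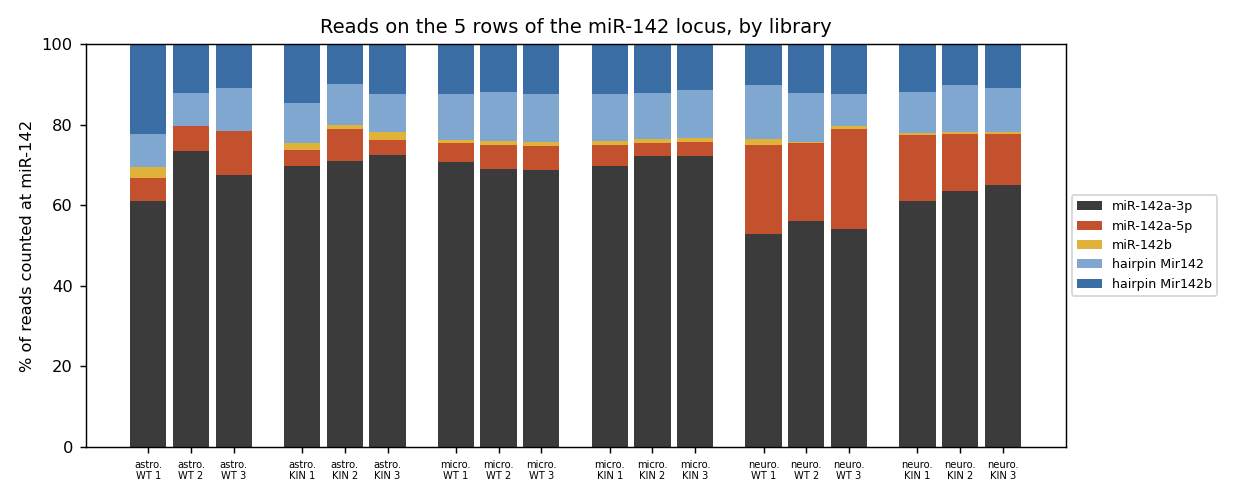
Share of the reads counted on the 5 rows of the miR-142 locus (miR-142a-3p, miR-142a-5p, miR-142b and the hairpins Mir142 and Mir142b) in each of the 18 libraries, in per cent. The hairpins took a similar part throughout, while miR-142a-5p took 12.6 to 24.8% in neurons and 3.06 to 10.8% in glia.

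Other miRNAs of blood and myeloid cells were followed beside them, 15 in the list and 14 in the table, of which the opposite arm and strand, mmu-miR-223-5p and mmu-miR-142b, share the loci above. In KIN microglia 11 were tested and 5 were called, all higher, beside 8.38% of mature miRNAs called higher, with a median log2 fold change of 1.16 against 0.46 for all mature miRNAs. miR-155-5p, induced in activated macrophages, rose by 2.43 ± 0.30, from 33, 42 and 38 counts to 114, 292 and 203 (edgeR adjusted p 0.00692). miR-21a-5p, common in inflammation, rose by 2.01 ± 0.25, and miR-146b-5p and miR-146a-5p, which dampen Toll-like receptor signalling, by 1.65 ± 0.23 and 1.16 ± 0.18 (edgeR adjusted p 0.00692, 0.0131 and 0.0162). The fifth was mmu-miR-142b, whose reads cannot be told apart from those of miR-142a-3p by these counts, so it is not independent of that member. Both miR-142a arms and miR-223-3p had smaller values in KIN microglia than these 5.

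In astrocytes and in neurons 8 of the list were tested for KIN over WT, with medians of 0.49 and −0.10 and edgeR adjusted p of at least 0.0686 and 0.917. The lowest in astrocytes was that of miR-155-5p, at 1.12 ± 0.37. miR-146a-5p, abundant in microglia (20427 to 23806 counts in WT, 29196 to 56430 in KIN), had 0.68 ± 0.32 in astrocytes (edgeR adjusted p 0.16). miR-451a and miR-486a-5p, the miRNAs of red cells, were lower in KIN neurons by log2 fold changes of −1.61 ± 0.52 and −1.68 ± 0.60, not called (edgeR adjusted p 0.917 for both).

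Between fractions the list was mixed. In WT, 7 of 11 were called higher and 1 lower in microglia than in astrocytes, beside 22.5% of mature miRNAs called higher. Against neurons, 7 of 11 were called higher in microglia and 3 lower, where 57.7% of mature miRNAs were called higher. The 3 lower ones were miR-451a, miR-486a-5p and the lymphocyte miRNA miR-150-5p, at −2.82 ± 0.55, −2.92 ± 0.74 and −1.72 ± 0.32 (edgeR adjusted p 0.00443, 0.0155 and 0.00356). miR-150-5p stood at 336 to 391 CPM in WT neurons, 80.9 to 109 CPM in WT microglia and 151 to 170 CPM in WT astrocytes. In WT neurons against astrocytes, 3 of 8 were called, all higher, beside 1.93% of mature miRNAs (miR-155-5p, miR-146a-5p and miR-451a at 2.48, 2.43 and 2.45).

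In KIN, 8 of 11 were called higher in microglia than in astrocytes (22.1% of mature miRNAs) and 7 of 11 higher than in neurons (76.1% of mature miRNAs). Neurons against astrocytes gave 3 higher and 3 lower of 8 (3.78% of mature miRNAs higher). miR-155-5p was called higher in neurons than in astrocytes in KIN as well, at 2.05 ± 0.34 (edgeR adjusted p 2.22e-06).

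To find the miRNAs most like them, the log2(CPM + 1) of each group mean was centred over the 6 groups and compared by root mean square difference among 229 other mature miRNAs with a mean of at least 5 CPM. Nearest to miR-142a-3p were miR-146a-5p (0.82), miR-142a-5p (1.01), miR-142b (1.25), miR-342-3p (1.29) and miR-223-3p (1.57). Nearest to miR-223-3p were miR-511-3p (0.84), whose hairpin lies in the macrophage gene Mrc1, miR-10a-5p (1.05), miR-142b (1.06), miR-146a-5p (1.25) and miR-342-3p (1.31). These are likenesses over 6 group means dominated by the height of the microglial values, and the counts of miR-511-3p were 0 in all neuronal libraries. As above, miR-142b is not independent of miR-142a-3p.

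**Figure D5:**
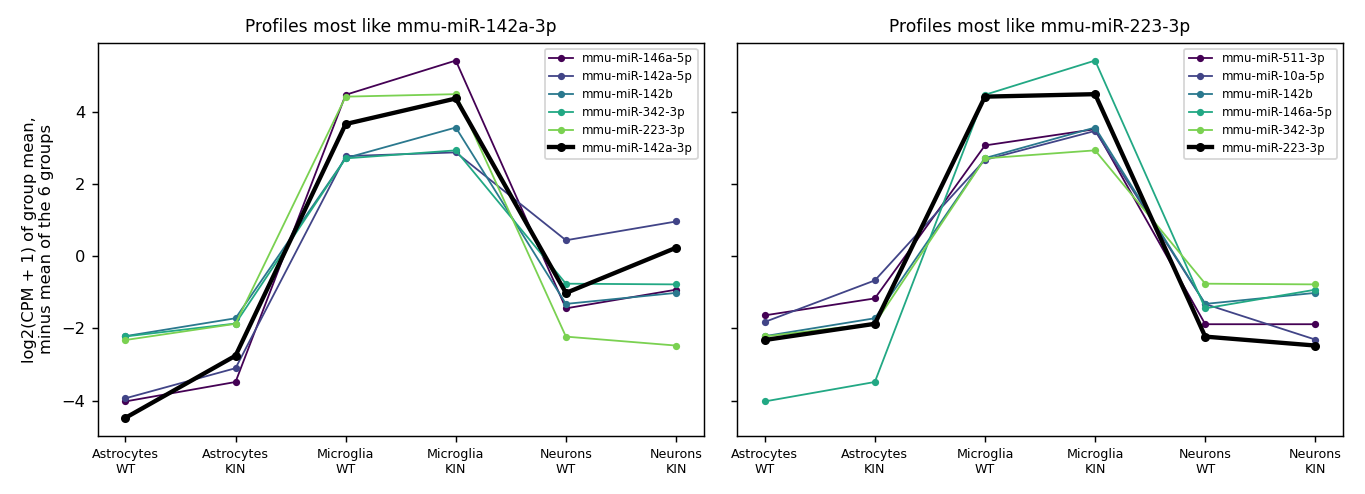
Centred profiles over the 6 groups (log2(CPM + 1) of the group mean minus the mean of the 6 groups) of miR-142a-3p (left) and miR-223-3p (right), each in black, with the 5 mature miRNAs of smallest root mean square difference. All peak in the microglial groups; miR-142a-3p and miR-142a-5p are higher in neurons than in astrocytes, while miR-223-3p is about level between them.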

How the data were processed

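The authors trimmed reads with cutadapt 4.6, dropped short ones, and placed them with Bowtie2 2.4.4 in successive rounds, mature miRNAs first and Ensembl transcripts of mm39 last, so that hairpin rows hold only reads not placed on mature miRNAs. The deposited counts are whole reads per feature from HTSeq 2.0.2, without strand and not normalized. Collapsing by molecular identifiers is described for the total RNA libraries only, so intervals cover counting error alone. Replicates are biological replicates per the labels; no source used here ties a number to a brain. Columns of the authors' DESeq2 comparisons and 36 other per-library columns were not used.

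Counts were tested with edgeR 4.0.16 (R 4.3.3), in a separate fit of 6 libraries per comparison and 1 fit of 18 for interactions, with library totals over all features, TMM scaling and at least 5 counts in at least 2 libraries. The script was tested on simulated counts. No 2 libraries were duplicates. Printed CPM carry no TMM factor. In KIN over WT the median feature was lower by 0.19 in astrocytes and 0.11 in microglia with TMM, and by 0.31 and 0.33 on plain totals. With a minimum correlation of 0.1 in every pair, same-numbered libraries deviated together only for neurons over astrocytes in WT (r 0.149, 0.313 and 0.106). There the block changed the call of none of the 3 miRNAs and moved the features called from 1698 to 1974.

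Named beside the 3 miRNAs were features of their loci, members of the blood and myeloid list that were called (others as counts or where a sentence needed the value, chosen after their values were seen), and the 5 miRNAs of most similar profile. Members and lists were chosen with earlier results of these data known. Comparisons of ratios between fractions were added after seeing the data. Alternatives were plain totals, scaling from mature miRNAs (their totals with TMM factors), DESeq2 1.42.0, no filter and 1 fit of all 18. Others were a replicate block, miR-142b added to miR-142a-3p, and leaving out each library.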

Additional observations from a re-analysis of the deposited data

Results flagged for a closer look

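In the comparison of genotype effects between microglia and neurons, miR-451a and miR-486a-5p passed the interaction test. The KIN over WT difference of miR-451a was higher in microglia than in neurons by 3.32 ± 0.79 on the log2 scale (edgeR adjusted p 0.0318), from 1.80 ± 0.50 in microglia and −1.61 ± 0.52 in neurons, neither called alone. That of miR-486a-5p was higher by 3.78 ± 0.88 (edgeR adjusted p 0.0272), from 2.23 ± 0.64 and −1.68 ± 0.60. WT microglia held 57, 67 and 75 counts of miR-451a and KIN microglia 81, 508 and 133, so KIN replicate 2 held most of the KIN reads. Red cell transcripts summed to 48.0 to 140 CPM in WT and 19.0 to 47.8 CPM in KIN neurons and at most 1.64 CPM in microglia. Their part in these values was not tested.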

How the results depend on the processing

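Of 700 alternative values of 57 results, 653 were rated the same as the main value. For fold changes this meant the same direction and side of the threshold. For ratios it meant the same direction only, and for numbers of features called a number of similar size. The call of miR-142a-3p in KIN astrocytes ranged from 1.61 to 2.15 on the log2 scale without 1 library (1.27 with scaling from mature miRNAs) and that in KIN microglia, not called, from 0.77 to 1.08, passing without KIN replicate 1. Same-numbered WT and KIN libraries had correlations from −0.28 (neurons) to 0.19 (microglia). These cannot show whether a number marks a pair, which stays unknown. With a replicate block miR-142a-3p had 1.93 ± 0.30 in KIN astrocytes, 0.88 ± 0.24 in KIN microglia (edgeR adjusted p 0.133) and 1.43 ± 0.55 in KIN neurons.

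With scaling from mature miRNAs, KIN over WT of miR-223-3p turned to −0.017 in astrocytes and −0.15 in microglia and that of miR-142a-5p to −0.058 in microglia. Microglia over neurons of miR-142a-5p became 0.57 in WT and −0.033 in KIN, and neurons over astrocytes of miR-223-3p became 2.19 in WT and 2.13 in KIN, both called. The genotype effect turned to −0.13 for miR-223-3p (microglia minus neurons) and to 0.16 for miR-142a-3p (neurons minus astrocytes). That scaling shifts by construction every comparison with neurons, where mature miRNAs take few counts. Neurons over astrocytes of miR-223-3p in WT was −0.00107 with DESeq2, −0.21 with no filter, −0.18 with the replicate block, −0.078 in 1 fit of all 18 libraries and −1.16 to 0.52 without 1 library. In KIN it ranged from −1.53 to −0.77 without 1 library and passed without KIN neurons replicate 2.

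Leaving out 1 library moved KIN over WT of miR-223-3p in neurons from −0.85 to 0.74. It moved the genotype effects, microglia minus neurons, from −1.01 to 0.19 for miR-142a-3p, from −0.68 to 0.30 for miR-142a-5p and from −0.51 to 1.22 for miR-223-3p, and the effect for miR-223-3p, neurons minus astrocytes, to between −1.68 and 0.14. Features called for KIN over WT were 466 in astrocytes (1494 with miRNA scaling, 159 in 1 fit, 41 to 1527 without 1 library) and 215 in microglia (329, 334 in 1 fit, 379 with DESeq2, 426 with no filter, 49 with the block, 0 to 940 without 1 library). In neurons they were 0 (20 with miRNA scaling, 75 with no filter, 0 to 52 without 1 library). Of the calls, 21.9% were higher in KIN astrocytes (11.8% on plain totals, 1.07% with miRNA scaling, 33.6% with DESeq2, 44.7% with no filter) and 32.6% in KIN microglia (19.3% on plain totals, 6.38% with miRNA scaling, 14.1% in 1 fit). Without 1 library the share was 18.7 to 58.5% in astrocytes, above 50% without any 1 of the 3 KIN libraries. In microglia it was 33.6 to 100%, at 75% of 12 calls without WT replicate 3 and 100% of 10 and of 4 calls without KIN replicates 2 and 3. Without WT replicate 1 edgeR called 0 (562 at an unadjusted p under 0.05). The causes were not tested. Depth limits miR-223-3p outside microglia and miR-142a-5p in astrocytes, at 1 to 17 counts per library.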
